A study of Homo sapiens with 18 samples.

Results

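The genes described here are 8 transcription factors of the pancreatic progenitor, *PDX1*, *NKX6-1*, *HNF4A*, *GATA4*, *GATA6*, *ONECUT1*, *PROX1* and *MNX1*. They were chosen by symbol from the 21944 genes of the authors' deposited table, and all 8 are listed there at 3, 6 and 24 h, in 24 of its 60942 rows. The table comes from bulk RNA sequencing of human pancreatic progenitors that were dissociated at day 19 of differentiation and reseeded on wells coated with the laminin isoform LN411 or with fibronectin (FN). Cells were harvested 3, 6 or 24 h later. Each matrix and time formed a group of 3 samples, which gave 6 groups and 18 samples. The labels give no drug or genetic perturbation beside the matrix, and the NGN3-GFP line carries a reporter for the endocrine factor *NEUROG3*. The paper and the growth protocol of the labels give the sequenced cells as NGN3-GFP, an SA121-derived line of human embryonic stem cells, although the source field of the labels names the HUES4 line. The values describe 1 genetic background.

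The study asked what happens between contact with LN411 and the choice of endocrine fate. The values that answer this for single genes, namely the authors' own fold changes and p-values, were not used here, and values per sample were not analysed. What remains is the authors' mean normalized count, which is 1 value per gene averaged over all samples. A gene's value was the same in its rows for 3, 6 and 24 h, with a largest relative gap of 4.89e-07 over the table. The levels below are therefore averages over both matrices and all times. They carry no replicate error, they cannot show a difference between LN411 and FN, and no test was run on them. The depth of single libraries is unknown, and the mean normalized counts of the table sum to 53217583.

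The pancreas arises from gut endoderm in a region marked by *PDX1*. *GATA4*, *GATA6*, *HNF4A* and *ONECUT1* act in the foregut endoderm and in the early bud, and *MNX1* is needed for the dorsal bud. *PROX1* marks hepatic and pancreatic progenitors, and *NKX6-1* marks progenitors that can give rise to endocrine and duct cells and is later kept in beta cells. *PDX1*, *NKX6-1*, *MNX1*, *ONECUT1* and *PROX1* encode homeodomain proteins, *GATA4* and *GATA6* encode zinc finger proteins and *HNF4A* encodes a nuclear receptor.

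All 8 genes lay above the median protein-coding gene. Levels of different genes were compared per kilobase (kb) of merged exons, the bases covered by any exon of the gene, since longer transcripts give more reads. On this scale the 8 factors had a median of 935 mean normalized counts per kb, against 194 for the 15355 protein-coding genes of the table. Their percentiles, meaning the share of protein-coding genes at or below the level of each, ran from 68.9 to 98.1 with a median of 84.5. Above the 90th percentile lay *PDX1* at 98.1 and, just past it, *GATA6* at 90.3. *GATA6* lay below it at 89.8 under a minimum mean normalized count of 10 and at 85.3 without division by length. On the longest transcript it was at 86.2, where *MNX1* reached 92.2. Over exon bases of no other gene, *GATA6* was at 91.5. There its full count was divided by a shorter length, so its level could only rise. Together the 8 genes held 0.0880% of the summed mean normalized counts, and *PDX1* alone made up 27.6% of their sum.

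**Figure D1:**
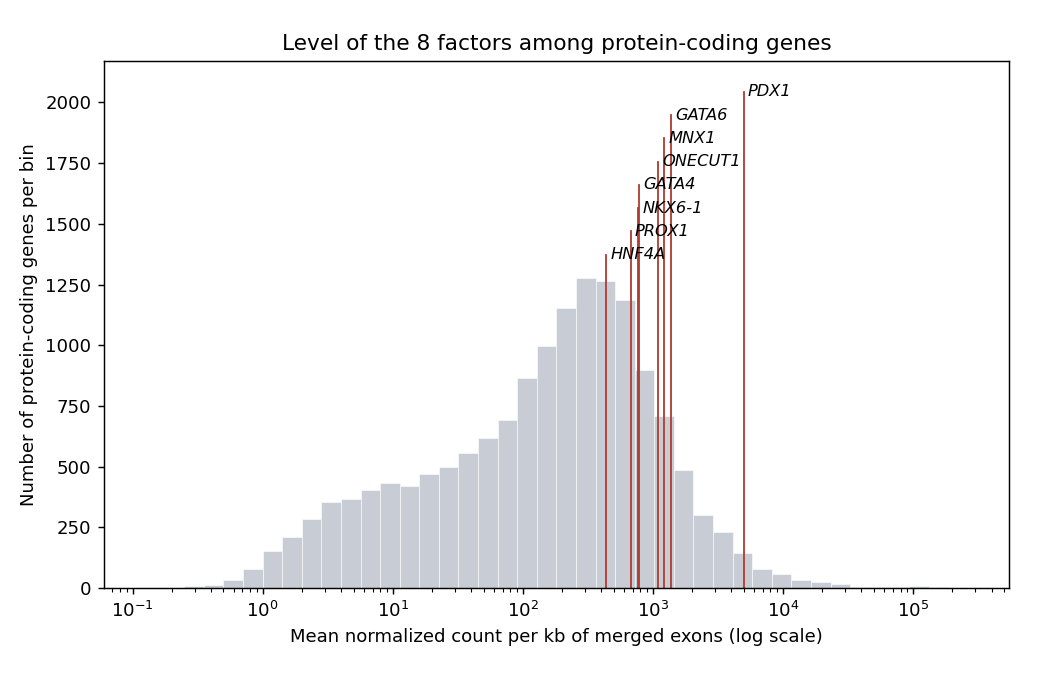
Number of protein-coding genes (vertical axis) by mean normalized count per kb of merged exons (horizontal axis, log scale), with a red line at the level of each factor. *HNF4A*, at 435 per kb, lies closest to the centre of the distribution and *PDX1*, at 4969 per kb, lies in its upper tail.

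*PDX1*, the homeodomain factor that starts the pancreatic programme and later activates the insulin gene, had the highest level of the set. Its mean normalized count was 12933, and with 2603 exon bases it reached 4969 per kb. It (ENSG00000139515) lies on chromosome 13 of GRCh38 from 27920000 to 27926313, on the plus strand, with 1 annotated transcript of 2 exons. The ratio of *PDX1* to the next gene in the order, *GATA6*, was 3.63 on merged exons, and its ratio to the lowest, *HNF4A*, was 11.4. The ratio to *HNF4A* was 5.32 on the longest transcript and 4.90 on coding length. *PDX1* stayed in first place under each of the 3 definitions of length and also without division by length.

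*GATA6* and *GATA4* encode zinc finger factors that act together in endoderm and in the early pancreas. The mean normalized count of *GATA6* (ENSG00000141448, chromosome 18, 22169589 to 22202528) was 5206, or 1370 per kb. For *GATA4* (ENSG00000136574, chromosome 8, 11676959 to 11760002) it was 3471, or 781 per kb. The scale per kb thus placed *GATA6* next after *PDX1* and *GATA4* in the fifth place, with percentiles of 90.3 and 81.9. Per kb of coding sequence, the pair stood closer together at 2917 and 2611, respectively.

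*MNX1*, a homeodomain factor of the dorsal pancreatic bud and of motor neurons, had a mean normalized count of 5110 and a level of 1213 per kb. It (ENSG00000130675) lies on chromosome 7 from 156994051 to 157010663. *ONECUT1*, also known as HNF6, carries a cut domain beside its homeodomain and acts upstream of endocrine specification. Its mean normalized count was 6657, the second highest of the set, and its level was 1090 per kb (ENSG00000169856, chromosome 15, 52755053 to 52791078). These genes took the third and the fourth place, and their percentiles were 88.8 for *MNX1* and 87.2 for *ONECUT1*.

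*NKX6-1* had the lowest mean normalized count of the set, 3040, but not the lowest level per length. With 3930 exon bases it reached 773 per kb, next to *GATA4*, and a percentile of 81.6 (ENSG00000163623, chromosome 4, 84491985 to 84499292). *PROX1*, a prospero-type homeodomain factor, showed the opposite. Its mean normalized count of 5985 was the third highest, and its 8899 exon bases brought it to 673 per kb (ENSG00000117707, chromosome 1, 213983181 to 214041510). *HNF4A*, the nuclear receptor that is also a main regulator in liver and intestine, had a mean normalized count of 4422 (ENSG00000101076, chromosome 20, 44355699 to 44432845). It has 17 annotated transcripts, and over its 10167 merged exon bases the level was 435 per kb, the lowest of the set, at a percentile of 68.9. The percentile of *HNF4A* was 78.4 on the longest transcript and 82.3 without division by length.

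Below *PDX1*, the order turned with the length used. Of the 7 pairs of neighbours in the order, 3 kept their direction under merged exons, the longest transcript and the longest coding sequence. These were *PDX1* over *GATA6*, *ONECUT1* over *GATA4* and *NKX6-1* over *PROX1*, the last with a ratio of 1.02 on coding length. The other 4 pairs changed direction. *HNF4A* moved most, from the eighth place on merged exons to the sixth on its longest transcript of 4739 bases, at 933 per kb, and to the fourth on coding length, at 3110 per kb. Without values per sample, it cannot be said which neighbours differ beyond the spread between samples.

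**Figure D2:**
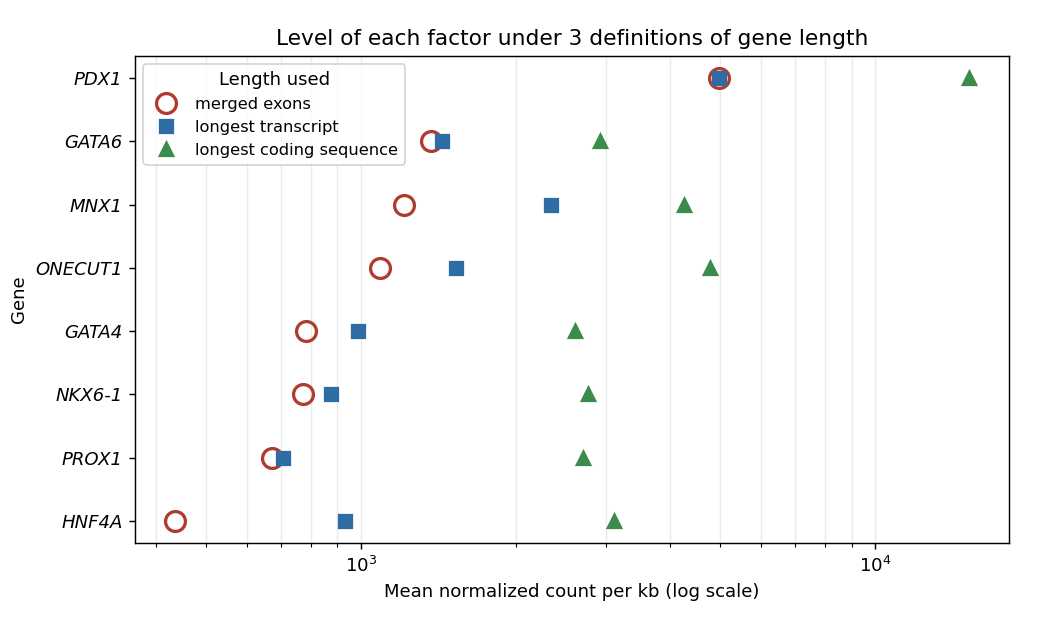
Mean normalized count per kb (horizontal axis, log scale) of each factor (vertical axis), with length taken as merged exons (open circles), the longest transcript (squares) or the longest coding sequence (triangles). *PDX1* is highest on each, and *HNF4A* is lowest only on merged exons.

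Exons shared with antisense genes were a further limit on these levels. The library kit given by the paper, NEBNext Ultra II RNA, is not a directional kit and does not mark the strand. Without strand, reads over exons that a gene shares with an antisense partner cannot be told apart. In the annotation, exons of listed antisense genes covered exons of 2 of the 8 factors, *GATA6* and *PROX1*. Other genes covered 415 exon bases of *GATA6*, or 10.9%. Of these, 321 lay under the antisense gene ENSG00000266283, with a mean normalized count of 66.0, and 94 under *GATA6-AS1*, with 881. For *PROX1* the share was 1.83%, all of it from *PROX1-AS1*, at 309. Divided by exon bases of no other gene, *GATA6* had 1538 per kb, against 1370 on merged exons. *PROX1* had 685 per kb, against 673. Reads over the shared bases may have been added to a factor or left out of its count, and their effect was not tested.

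The members were set beside their closest relatives in the genome, of which 9 of 15 are listed in the table. Of the 12 pairs of a factor and a listed relative, the factor had the higher level per kb in 11. All 12 pairs kept their direction under the 3 definitions of length. For *NKX6-1*, the listed relative was *NKX6-2*, at 6.98 per kb, a ratio of 111. *PROX2* had 7.81 per kb, and the ratio of *PROX1* to it was 86.1. The levels of *NKX6-2* and *PROX2* rest on mean normalized counts of only 19.3 and 37.7.

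Among the GATA genes, *GATA5* was the next below *GATA4*, at 154 per kb. The ratio of *GATA4* to *GATA5* was 5.06 and that of *GATA6* to *GATA5* was 8.88. *GATA2* and *GATA3*, which act in blood and other lineages, lay lower, at 22.7 and 22.1 per kb. *HNF4A* and its relative *HNF4G* were closer, with 435 and 240 per kb and a ratio of 1.81, which was 3.68 on coding length.

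*ONECUT2* was the one relative above its member. Its mean normalized count of 32667 was also higher than that of any of the 8 factors. Per kb of merged exons it had 1974, against 1090 for *ONECUT1* and 402 for *ONECUT3*. The ratio of *ONECUT1* to *ONECUT2* was 0.552 on merged exons and 0.221 on coding length. *PDX1* and *CDX2* belong to the ParaHox genes, and *CDX2*, a factor of the intestinal epithelium, had 1011 per kb. On merged exons this was below *PDX1* by a ratio of 4.91 and above 4 of the 8 factors.

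**Figure D3:**
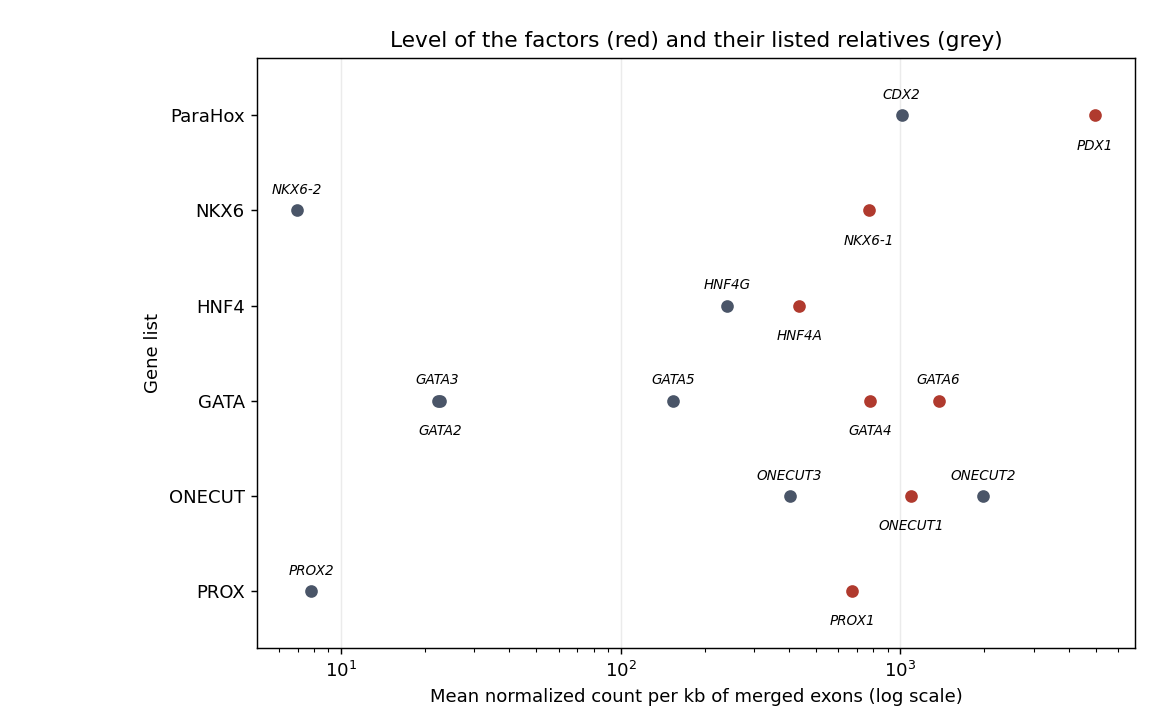
Mean normalized count per kb of merged exons (horizontal axis, log scale) for each gene family (vertical axis), with the factors in red and listed relatives in grey. *ONECUT2*, at 1974 per kb, is the only grey point to the right of a red point of its own family.

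Other transcription factors of pancreatic progenitors spanned a wider range than the 8. Of 14 such genes, 13 are listed, with levels from 7.64 to 8405 per kb and a median of 674. On merged exons, *SOX4* and *SOX9* lay above *PDX1*, at 8405 and 5259 against 4969 per kb, and 4 of the 13 lay below *HNF4A*. The place of these genes under the other lengths was not examined. *PTF1A*, the factor of the acinar lineage and of early multipotent progenitors, was lowest, at a mean normalized count of 12.5 and 7.64 per kb.

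The label of the cells was checked against marker genes. All 7 progenitor markers were listed, and *GP2*, a surface protein of pancreatic progenitors, had 33603 per kb, at a percentile of 99.8. Apart from *PTF1A*, the progenitor markers lay between 773 and 33603 per kb. *PTF1A* was near the bottom of the table. Of the 7 markers, *PDX1*, *NKX6-1* and *ONECUT1* are themselves among the 8 factors. The progenitor markers had a median of 2003 per kb, below the 10375 per kb of the hepatic markers, so that these levels alone do not single out the label. The duct and epithelial keratin *KRT19* stood at 22610 per kb.

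Markers of other cell types were also measured, and their part in the levels of the 8 factors was not tested. In a bulk sample, fewer cells of a type and less RNA per cell cannot be told apart. Of the hepatic markers, *TTR*, *APOA1* and *AFP* had 26318, 12416 and 8334 per kb, all above *PDX1* on merged exons, while *ALB* had 187. *TTR* is made by islet cells as well, and *HNF4A* and *PROX1* are also expressed in liver. Of the 3 listed intestinal markers, *VIL1* and *CDX2* had 2929 and 1011 per kb, while *LGR5* had 6.88. The 3 listed acinar markers ran from 36.2 to 1290 per kb, and the 4 duct markers, *KRT19* included, from 128 to 22610 per kb. Among the endocrine markers, *CHGA* and *SST* reached 1426 and 958 per kb, *NEUROG3* 289, and *INS*, *NEUROD1* and *GCG* 12.7, 8.67 and 6.87. The last 3 rest on low mean normalized counts of 8.32, 71.2 and 16.3, respectively, and their order by count differs from that per kb. *INS* was listed at 1 of the 3 times and *GCG* at 2. The 4 endothelial markers were between 0.851 and 9.69 per kb, the 4 listed mesenchymal markers between 15.9 and 454, and the only listed blood marker, *CD14*, at 29.3. *LIN28A*, an RNA-binding protein of stem cells and fetal tissue, had 2599 per kb, and the other listed stem cell marker, *DPPA4*, 75.4.

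**Figure D4:**
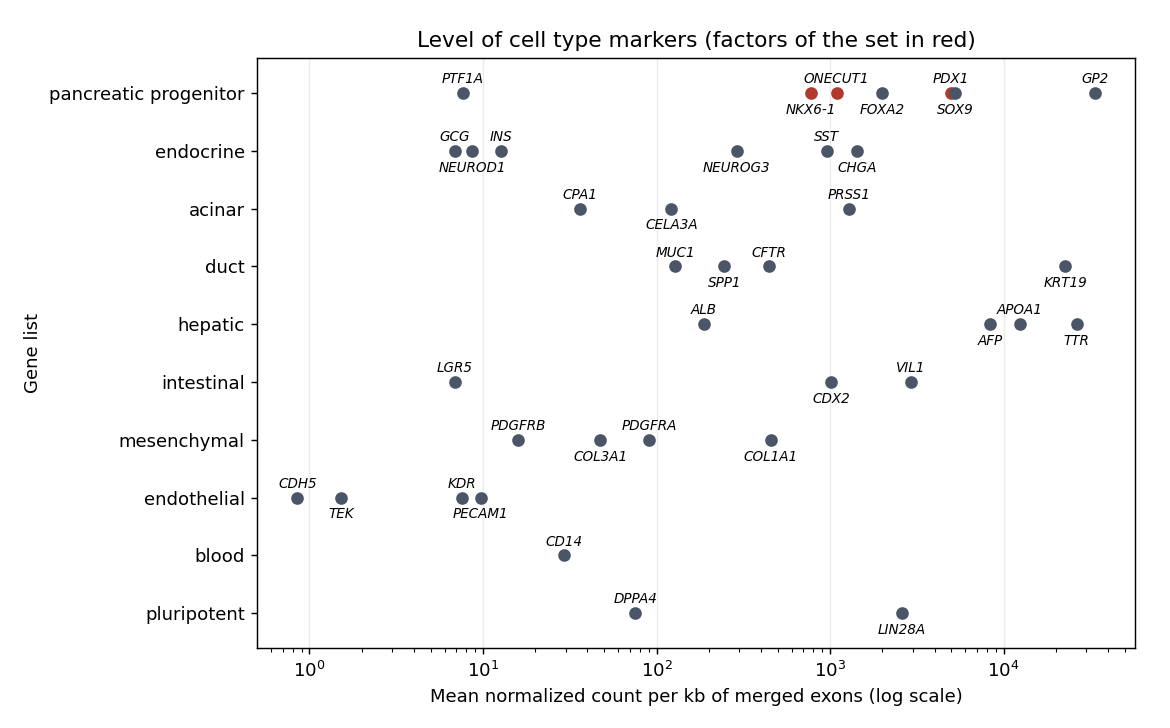
Mean normalized count per kb of merged exons (horizontal axis, log scale) of listed marker genes by cell type (vertical axis), with 3 of the 8 factors in red. Endothelial markers lie at 9.69 per kb or less, and *GP2* is the rightmost point at 33603 per kb.

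Promoter sequence was described for the 5 factors with an entry in the RefSeq promoter table (GRCh38.p14), *NKX6-1*, *HNF4A*, *GATA6*, *ONECUT1* and *MNX1*. *PDX1*, *GATA4* and *PROX1* had no entry. The 250 bases before the annotated start had a median GC content of 67.6% in the 5 factors, against 58.0% over 35116 promoters. Unlike the genes behind the percentiles of level, these promoters were not limited to protein-coding genes. The ratio of observed to expected CpG dinucleotides had a median of 0.810, against 0.558. It was highest for *ONECUT1*, at 1.005, and lowest for *HNF4A*, at 0.377.

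On both strands, CCAAT was found in all 5 promoters and in 32.01% of all promoters. GGGCGG was found in 3 of the 5 and in 42.6% of all, and TATAAA in 0 of the 5 and in 10.7% of all. These matches of letters were not tested, and they do not show binding. The 3 sequences below are examples. *NKX6-1* and *MNX1* are the promoters with 2 CCAAT matches each, and *HNF4A* is the one with the fewest CpG dinucleotides. The promoter with the most, that of *ONECUT1* with 37, is not printed. Capitals mark CCAAT and GGGCGG on either strand, where matches of GGGCGG may overlap.
NKX6-1 (chr4:84499293-84499542, minus strand): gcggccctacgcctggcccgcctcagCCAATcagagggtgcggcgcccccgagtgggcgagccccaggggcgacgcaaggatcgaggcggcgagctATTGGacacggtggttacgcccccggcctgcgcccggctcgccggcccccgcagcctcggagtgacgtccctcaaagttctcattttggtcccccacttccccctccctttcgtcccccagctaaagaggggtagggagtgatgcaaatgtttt
MNX1 (chr7:157010664-157010913, minus strand): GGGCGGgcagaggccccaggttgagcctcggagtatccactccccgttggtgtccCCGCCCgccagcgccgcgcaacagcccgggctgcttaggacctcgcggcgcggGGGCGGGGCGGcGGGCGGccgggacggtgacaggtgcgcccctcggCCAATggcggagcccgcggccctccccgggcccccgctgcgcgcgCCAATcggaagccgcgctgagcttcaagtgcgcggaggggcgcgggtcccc
HNF4A (chr20:44355449-44355698, plus strand): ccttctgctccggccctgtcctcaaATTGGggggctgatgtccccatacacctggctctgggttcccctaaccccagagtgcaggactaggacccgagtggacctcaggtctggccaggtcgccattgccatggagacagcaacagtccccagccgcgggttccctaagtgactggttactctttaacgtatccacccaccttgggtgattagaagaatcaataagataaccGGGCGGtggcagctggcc
*NKX6-1* held 23 CpG dinucleotides in this window, *MNX1* 36 and *HNF4A* 8. In *MNX1*, GGGCGG occurred 5 times.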

How the data were processed

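The samples, their matrices and times were taken from the labels. According to the paper, the authors aligned reads with STAR (2.7.2d per the labels) to GRCh38.p13, counted reads per gene with the GENCODE v32 annotation and analysed them with DESeq2 (1.34.0). The deposited table holds the authors' mean normalized count, a signal averaged over all samples after division by size factors. Its other columns hold the authors' comparison of LN411 with FN at each time (a fold change with its error and statistic, and raw and adjusted p-values), and none of these was used. The edgeR test planned for counts per sample, with its alternatives, was not run, since such counts were not analysed here.

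The mean normalized count was divided by gene length in GENCODE v44 on GRCh38, matched by Ensembl identifier for 99.6% of genes. Percentiles were taken over protein-coding genes. Alternatives were the longest transcript, the longest coding sequence, a minimum mean normalized count of 10, no division by length and exon bases of no other gene. The last was added after the data were examined. Relatives, other factors and markers were fixed lists, of which one gene is not reported here, and members and lists were chosen with earlier results of these data known. Named genes were the members, their relatives, antisense genes over members, and list genes. No depth per sample or precision can be given. Interval and percentile functions were tested on simulated data. The work was done in Python 3.11.15 with pandas 2.3.3, numpy 2.4.6 and matplotlib 3.10.9.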

Additional observations from a re-analysis of the deposited data

How the results depend on the processing

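The median level of the 8 factors was 935 mean normalized counts per kb of merged exons, 1213 per kb of the longest transcript and 3013 per kb of the longest coding sequence. Summing identifiers that share a symbol could not change it, since 0 symbols had several identifiers, and neither could leaving out exon bases of other genes, since the genes that set the median have none. The median percentile was 84.5, and it was 83.8 with a minimum mean normalized count of 10, 85.2 without division by length and 82.9 on the longest transcript. No paired analysis was possible because the values used are means over all samples. For the same reason the planned comparison of LN411 with FN, with single samples left out, another normalization or no filter, was not run. Gene lengths come from a newer annotation than the one the authors counted with, and the isoforms used by these cells are unknown. The annotated length limits the order of the other genes more than the place of *PDX1*.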
